A study of Mus musculus with 72 samples.

Results

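Integrins are cell surface adhesion receptors made of 1 alpha and 1 beta chain, and 10 of their subunit genes were followed here, Itgax, Itgam, Itgal, Itgb2, Itga4, Itga6, Itgb1, Itgav, Itgb3 and Itgb5. They were taken by gene symbol, as 10 of the 25124 genes of an RNA-seq table and as the 71 of 51983 ATAC-seq peaks that the deposited annotation names after them. The cells were RAW264.7, a mouse macrophage-like line of BALB/c origin, kept in medium with 10% serum and given no treatment. All groups carried a lentiviral short hairpin RNA, whose target was the corepressor SMRT (shSMRT), the corepressor NCOR (shNCOR) or, as the control, GFP (shGFP). Each group had 3 RNA libraries and 3 ATAC libraries. The labels name 1 hairpin per target and do not give the origin of the replicate libraries, so the spread behind each p-value is that between libraries and may be technical only. An effect of losing a target cannot be told apart here from another difference between the infected cell populations.

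The alpha and beta chains pair inside the cell and reach the surface together, where they bind matrix proteins or ligands on other cells after a switch to an extended, active form. In macrophages the beta2 chain pairs with alphaL, alphaM or alphaX to give LFA-1, Mac-1 and p150,95, the last of which carries the CD11c chain. Alpha4 and alpha6 pair with beta1 and bind VCAM1 and fibronectin, or laminin, and alphav pairs with beta3 or beta5 and binds vitronectin and other proteins with an RGD motif.

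The RNA libraries held 39.15 to 49.09 M reads (M, mega) and the ATAC libraries 6.06 to 10.85 M, with 47.7 to 49.9% of ATAC reads in peaks in shSMRT, 54.7 to 55.7% in shNCOR and 50.6 to 54.0% in shGFP. Ncor1, the transcript of NCOR, was at 18.9, 20.2 and 20.2 RPKM in shSMRT, 3.61, 4.20 and 4.30 RPKM in shNCOR and 18.4, 20.2 and 18.7 RPKM in shGFP. The transcript of SMRT is not reported here. Of 10 macrophage markers 9 passed the filter on low values, and Mertk reached at most 0.041 RPKM. In shSMRT against shGFP 6 of the 9 were higher and 3 lower (limma adjusted p under 0.05), beside 24.4% and 31.4% of all tested genes. In shNCOR against shGFP 4 were higher and 4 lower, beside 17.6% and 20.0%. Passing did not require a level in every group. Fcgr1 was at 9.52, 8.73 and 9.2 RPKM in shSMRT, 0.339, 0.438 and 0.471 RPKM in shNCOR and 17.4, 17.4 and 17.6 RPKM in shGFP. Aif1 was at 5.13, 4.89 and 4.55 RPKM in shSMRT, 1.04, 1.03 and 0.604 RPKM in shNCOR and 2.81, 3.52 and 2.79 RPKM in shGFP. Of 10 neutrophil and mast cell markers 8 were at 0 in all 9 RNA libraries, as were 5 of the 9 lymphocyte markers in the table.

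Promoter sequences of Itgax and Itgav are shown because, of the 6 subunits with a matched sequence, these had the largest RNA log2 fold changes in both knockdowns. They run over the 250 bases before the annotated start, 5′ to 3′ on the plus strand (RefSeq, GRCm38.p6, chr7:128129300-128129549 for Itgax and chr2:83724147-83724396 for Itgav). In Itgax the capitals mark an AP-1 motif (TGANTCA) whose first base lies 56 bases before the start, and in Itgav a PU.1 motif (GAGGAAGT) on the opposite strand, 9 bases before it.
Itgax: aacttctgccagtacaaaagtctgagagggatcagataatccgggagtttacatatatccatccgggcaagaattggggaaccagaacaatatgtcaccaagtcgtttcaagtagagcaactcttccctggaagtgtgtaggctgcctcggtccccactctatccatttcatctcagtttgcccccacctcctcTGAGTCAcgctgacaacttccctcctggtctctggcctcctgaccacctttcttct
Itgav: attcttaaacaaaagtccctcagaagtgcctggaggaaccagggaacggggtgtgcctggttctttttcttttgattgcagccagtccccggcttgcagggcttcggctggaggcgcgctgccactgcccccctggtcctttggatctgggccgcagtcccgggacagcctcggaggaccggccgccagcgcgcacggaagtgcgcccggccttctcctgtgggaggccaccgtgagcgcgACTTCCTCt
Both windows lay wholly inside an ATAC peak. Searched on both strands, AP-1 was in 6.75% and PU.1 in 2.44% of the 32851 promoter windows of the same length. Each of these motifs was found in 1 of the 6 of 10 subunits with a sequence. A GC-box (GGGGCGGGG) was in 2 of the 6, Itga4 and Itgb5, and in 10.4% of all windows. The windows had 50.0% GC and 5 CpG in Itgax and 64.4% GC and 18 CpG in Itgav, beside medians of 52.4% and 6 over all windows.

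In RNA, 9 of the 10 subunits passed the filter of at least 1 RPKM (reads scaled per M of library and per kilobase of exon) in at least 3 of 9 libraries, and Itgb3 did not. Itga6 passed through its shSMRT and shGFP libraries. In shSMRT against shGFP, 6 of the 9 were higher, 1 was lower and 2 were not called (limma on log2(RPKM + 1), Benjamini-Hochberg adjusted p under 0.05 over 10789 genes). The background in that comparison was 24.4% of tested genes higher and 31.4% lower. In shNCOR against shGFP, 5 were higher, 2 lower and 2 not called, beside a background of 17.6% higher and 20.0% lower. In shSMRT against shNCOR, 6 were higher and 3 lower, beside a background of 22.8% higher and 29.0% lower. The median log2 fold change over the 9 subunits was 0.42, 0.12 and 0.39 in these comparisons, beside -0.02, 0.00 and -0.02 over all genes. Both comparisons with shGFP share its 3 libraries. Fold changes on this scale understate those of genes near 1 RPKM, so ratios of mean RPKM are given beside them. In bulk RNA, fewer cells of a type and less RNA per cell cannot be told apart.

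**Figure D1:**
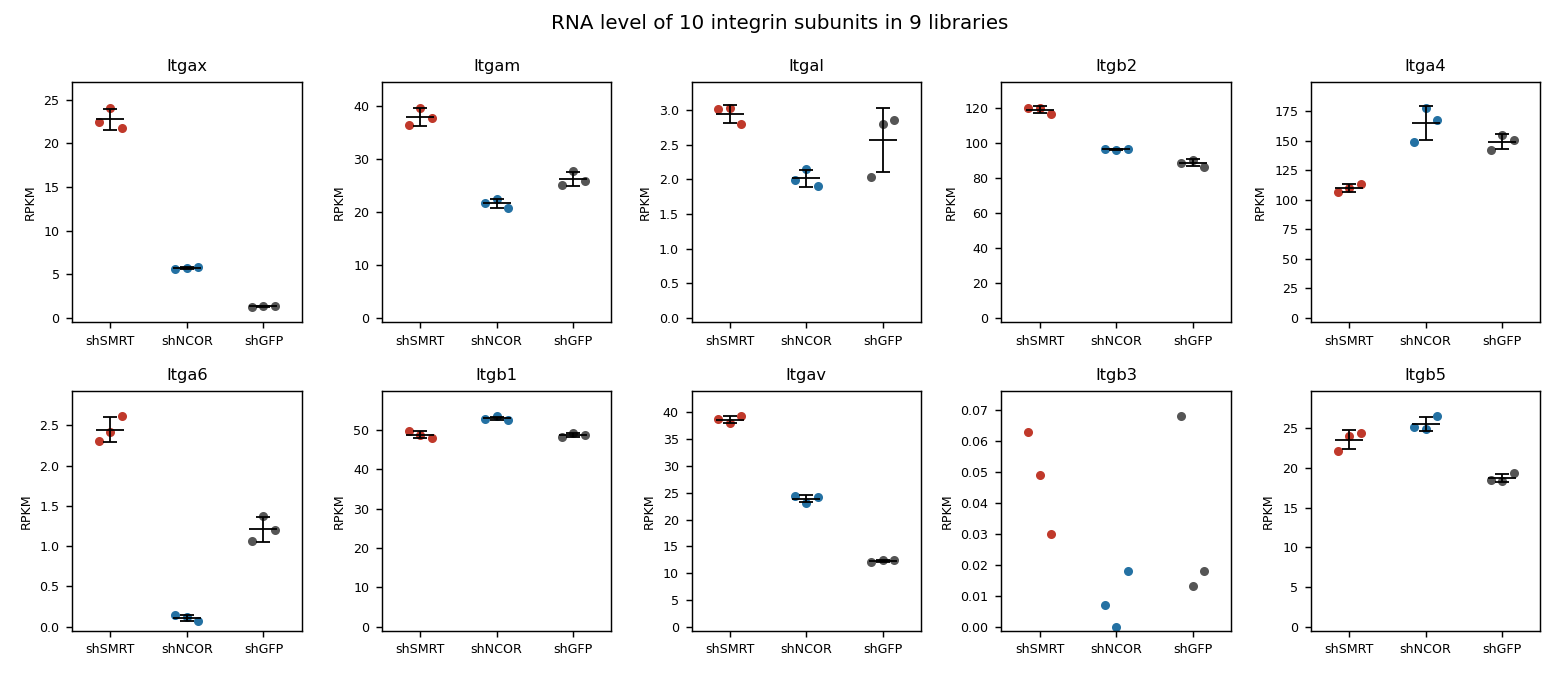
RNA level of each subunit in RPKM (vertical axis, from 0) in the shSMRT, shNCOR and shGFP libraries. Points are libraries, and bars are the mean ± SD of 3, omitted for Itgb3. Itgax and Itgav were highest in shSMRT and lowest in shGFP, and Itga6 was lowest in shNCOR.

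Itgax, the alphaX or CD11c chain, had the largest log2 fold change against shGFP of the 9 tested subunits on the log2(RPKM + 1) scale, in either knockdown. As a ratio of mean RPKM, the fall of Itga6 in shNCOR was larger than the rise of Itgax there. The gene (NM_021334, chr7:128129550-128150657, mm10) was at 22.4, 24.1 and 21.7 RPKM in shSMRT, 5.63, 5.71 and 5.80 RPKM in shNCOR and 1.24, 1.34 and 1.40 RPKM in shGFP. The 3 groups did not overlap, and the spread within each was small beside the gaps between them. Mean RPKM was 17.1 times as high in shSMRT as in shGFP and 4.29 times as high in shNCOR as in shGFP. In log2 terms the fold change was 3.35 ± 0.05 in shSMRT (SE, limma adjusted p = 1.14e-11) and 1.53 ± 0.05 in shNCOR (adjusted p = 2.94e-09), and shSMRT exceeded shNCOR by 1.82 ± 0.05 (adjusted p = 8.11e-10). These values rested on 3507 to 4095 reads in shSMRT, 918 to 1108 in shNCOR and 211 to 221 in shGFP. CD11c is widely used to mark dendritic cells, so a list of 10 dendritic cell genes is given beside it. All 10 stayed under 1 RPKM in every library. Flt3, Ccr7 and Cd209a were at 0 in all 9, and the list summed to 1.16 to 1.51 RPKM in shSMRT, 0.405 to 0.765 in shNCOR and 0.669 to 0.896 in shGFP. Any link of this list to the Itgax values was not tested.

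Itgam encodes alphaM, or CD11b, and its gene ends 11.0 kb before Itgax begins on chromosome 7 (chr7:128062640-128118491). It was at 36.4, 39.7 and 37.6 RPKM in shSMRT, 21.7, 22.4 and 20.7 RPKM in shNCOR and 25.1, 27.8 and 25.7 RPKM in shGFP. All shSMRT libraries lay above all shGFP libraries, and all shNCOR libraries below them. Its log2 fold change was 0.52 ± 0.05 in shSMRT (limma adjusted p = 4.38e-06) and -0.27 ± 0.05 in shNCOR (adjusted p = 0.00101), and the difference between the knockdowns was 0.78 ± 0.05 (adjusted p = 1.79e-07). Both neighbours were thus higher in shSMRT, whereas in shNCOR Itgax was higher and Itgam lower.

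Itgb2 encodes beta2, or CD18, the chain that all alpha chains of this family need (chr10:77530370-77565708). It was at 120.5, 120.4 and 117.0 RPKM in shSMRT, 96.9, 96.2 and 96.5 RPKM in shNCOR and 89.0, 90.6 and 86.7 RPKM in shGFP, with no overlap. The change was modest, 0.42 ± 0.03 in shSMRT (limma adjusted p = 2.23e-07) and 0.12 ± 0.03 in shNCOR (adjusted p = 0.00383), with shSMRT above shNCOR by 0.30 ± 0.03 (adjusted p = 2.91e-06). Itgal, which encodes the alphaL chain of LFA-1 (chr7:127296260-127335137), was at 3.01, 3.03 and 2.79 RPKM in shSMRT, 1.98, 2.15 and 1.91 RPKM in shNCOR and 2.04, 2.80 and 2.85 RPKM in shGFP. The shGFP libraries overlapped with each of the other groups, with replicate 1 lowest. Neither comparison with shGFP was called, at 0.15 ± 0.09 in shSMRT (adjusted p = 0.175) and -0.23 ± 0.09 in shNCOR (adjusted p = 0.0675). Without shGFP replicate 1 the value in shNCOR was -0.35 and was called (adjusted p = 0.00518). Itgal was higher in shSMRT than in shNCOR by 0.39 ± 0.09 (adjusted p = 0.0043).

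The makeup of the beta2 partner transcripts differed between the groups. Itgax made up 36.3, 36.1 and 34.9% of the summed RPKM of Itgax, Itgam and Itgal in shSMRT, 19.2, 18.9 and 20.4% in shNCOR and 4.38, 4.21 and 4.68% in shGFP. Itgam made up 59.6 ± 0.88% in shSMRT, 73.7 ± 0.668% in shNCOR and 87.1 ± 1.32% in shGFP (SD, n = 3 each). Itgam was therefore the most abundant partner in every group. The Itgax share was 31.3 percentage points higher in shSMRT than in shGFP and 15.1 points higher in shNCOR than in shGFP, each with an exact two-sided permutation p of 0.1, the smallest that 3 against 3 libraries allow. The summed level was 63.6 ± 2.79 RPKM in shSMRT, 29.3 ± 0.938 in shNCOR and 30.1 ± 1.77 in shGFP. In shNCOR and shGFP the sums overlapped (difference -0.758 RPKM, exact permutation p = 0.7). Itgb2 exceeded the sum 1.88 ± 0.0728 times in shSMRT, 3.29 ± 0.111 times in shNCOR and 2.95 ± 0.158 times in shGFP. Per exon length, beta2 transcript thus exceeded that of its 3 alpha chains in every group, by least in shSMRT, whose ratio lay below shGFP in every library (exact permutation p = 0.1).

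**Figure D2:**
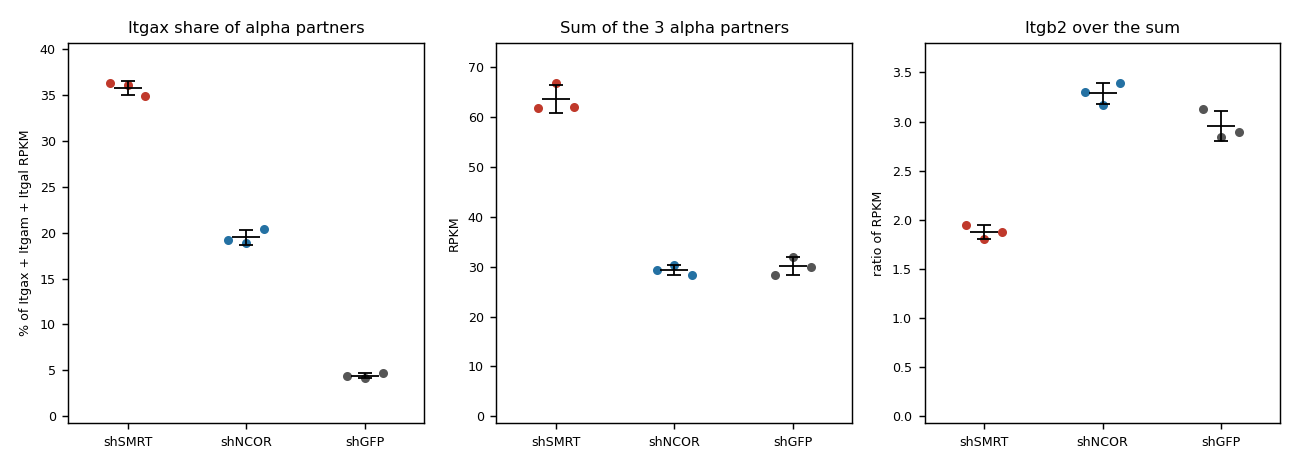
Share of Itgax in the summed RPKM of Itgax, Itgam and Itgal (left, %), that sum (middle, RPKM), and Itgb2 RPKM over the sum (right, ratio), by group. Points are RNA libraries and bars the mean ± SD of 3. The Itgax share was 35.8% in shSMRT, 19.5% in shNCOR and 4.42% in shGFP on average, with no overlap.

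Among the subunits of the beta1 group, Itga4 fell in shSMRT, Itga6 moved in opposite directions and Itgb1 was close to level. Itga4, the alpha4 or CD49d chain (chr2:79255426-79333114), was at 106.5, 109.9 and 113.2 RPKM in shSMRT, 149.2, 178.2 and 167.5 RPKM in shNCOR and 142.1, 154.7 and 150.4 RPKM in shGFP. The shSMRT libraries lay below all others, and the shNCOR and shGFP libraries overlapped. The log2 fold change was -0.44 ± 0.06 in shSMRT (limma adjusted p = 6.37e-05) and 0.14 ± 0.06 in shNCOR, which was not called (adjusted p = 0.0707). Without shNCOR replicate 1 that value was 0.21 and was called (adjusted p = 0.00276), as it was, at 0.17, with array weights (adjusted p = 0.0161) and, at 0.14, in the voom fit (adjusted p = 0.0138). The difference between shSMRT and shNCOR was -0.58 ± 0.06 (adjusted p = 8.37e-06).

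Itga6, the alpha6 or CD49f chain (chr2:71786939-71858427), was at 2.30, 2.42 and 2.61 RPKM in shSMRT, 0.139, 0.116 and 0.069 RPKM in shNCOR and 1.06, 1.37 and 1.20 RPKM in shGFP. Its 3 groups stood apart, shSMRT above and shNCOR below shGFP. Mean RPKM was 2.02 times as high in shSMRT as in shGFP and 11.2 times lower in shNCOR than in shGFP. These values rested on 597 to 617 reads in shSMRT, 16 to 40 in shNCOR and 270 to 315 in shGFP. The log2 fold change was 0.64 ± 0.08 in shSMRT (limma adjusted p = 6.84e-05) and -1.0 ± 0.08 in shNCOR (adjusted p = 4.16e-06), and the difference between the knockdowns was 1.64 ± 0.08 (adjusted p = 5.18e-08). The sizes depended on the pseudocount, from 0.26 to 0.96 in shSMRT and from -2.67 to -0.28 in shNCOR with pseudocounts of 5 and 0.1 RPKM, and were 1.02 and -3.48 in a limma voom fit on recovered reads. Direction and call were kept in the 18 other settings that tested Itga6, which a filter of 5 RPKM left out.

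Itgb1, the beta1 or CD29 chain shared by many alpha chains (chr8:128685654-128733579), was at 49.8, 48.8 and 48.0 RPKM in shSMRT, 52.8, 53.5 and 52.7 RPKM in shNCOR and 48.2, 49.4 and 48.8 RPKM in shGFP. The shSMRT and shGFP libraries overlapped and the shNCOR libraries lay slightly above them. Its log2 fold change was 0.00 ± 0.03 in shSMRT (limma adjusted p = 0.960), 0.12 ± 0.03 in shNCOR (adjusted p = 0.00437) and -0.12 ± 0.03 in shSMRT against shNCOR (adjusted p = 0.00313). With quantile normalization the last was -0.07 and not called (adjusted p = 0.0705), and the value in shSMRT was 0.08 and called (adjusted p = 0.0375). Itgb1 varied least of the 9 tested subunits, with an SD of 0.06 over the 9 libraries on the log2(RPKM + 1) scale, against 1.45 for Itgax, 0.72 for Itga6 and 0.68 for Itgav.

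Of the alphav family, Itgav and Itgb5 were higher in both knockdowns, and Itgb3 was close to the limit of detection. Itgav, the alphav or CD51 chain (chr2:83724397-83806917), was at 38.7, 38.0 and 39.3 RPKM in shSMRT, 24.3, 23.1 and 24.2 RPKM in shNCOR and 12.1, 12.5 and 12.4 RPKM in shGFP. The groups did not overlap and stood in the same order as for Itgax. Mean RPKM was 3.14 times as high in shSMRT as in shGFP and 1.94 times as high in shNCOR as in shGFP. As log2 fold changes these were 1.57 ± 0.03 in shSMRT (limma adjusted p = 4.37e-11), 0.90 ± 0.03 in shNCOR (adjusted p = 4.42e-09) and 0.67 ± 0.03 in shSMRT against shNCOR (adjusted p = 3.29e-08).

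Itgb5, the beta5 chain (chr16:33829665-33949338), was at 22.2, 24.0 and 24.5 RPKM in shSMRT, 25.1, 24.9 and 26.5 RPKM in shNCOR and 18.5, 18.4 and 19.3 RPKM in shGFP. Both knockdowns lay above shGFP in every library. Its log2 fold change was 0.31 ± 0.04 in shSMRT (limma adjusted p = 9.95e-05) and 0.42 ± 0.04 in shNCOR (adjusted p = 1.78e-05). The difference of shSMRT from shNCOR, -0.11 ± 0.04, was just past the threshold (adjusted p = 0.0494) and the call ended in 13 of 19 other settings. Leaving out any library but shSMRT replicate 3 ended it, with adjusted p of 0.0536 to 0.193, and without shSMRT replicate 1 the value was -0.07. The ratio of Itgav to Itgb5 RPKM was 1.75, 1.59 and 1.61 in shSMRT, 0.969, 0.928 and 0.914 in shNCOR and 0.657, 0.677 and 0.641 in shGFP.

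Itgb3, the beta3 or CD61 chain (chr11:104608000-104670471), was at 0.063, 0.049 and 0.030 RPKM in shSMRT, 0.007, 0 and 0.018 RPKM in shNCOR and 0.068, 0.013 and 0.018 RPKM in shGFP. That was 16, 12 and 7 reads in shSMRT, 2, 0 and 4 in shNCOR and 17, 3 and 4 in shGFP, too few for a test. The 0 in shNCOR allows a level of up to 0.0118 RPKM (3 reads, counting error only). Beta3 is a chain of osteoclasts and platelets, and alphav is its partner, so both lists are given beside them. Of 10 osteoclast genes 8 were tested. Against shGFP 7 were higher and 1 lower in shSMRT, beside 24.4% and 31.4% of all tested genes. In shNCOR 6 were higher and 1 lower, beside 17.6% and 20.0% of all tested genes. In shSMRT against shNCOR 7 were higher and 1, Car2, was lower, beside 22.8% and 29.0% of all tested genes. The osteoclast genes summed to 270 to 280 RPKM in shSMRT, 669 to 691 in shNCOR and 231 to 244 in shGFP. Car2 made up most of the sum in shNCOR and in shGFP, so the order of the sums is not that of the other genes. Car2 alone was at 90.02 to 94.91 RPKM in shSMRT, 590 to 614 in shNCOR and 181 to 196 in shGFP, and Calcr and Oscar stayed under 1 RPKM in all 9. The 7 megakaryocyte and platelet genes summed to 4.34 to 5.05 RPKM in shSMRT, 0.449 to 1.35 in shNCOR and 0.297 to 0.914 in shGFP. Of them Pf4 alone was tested, and Ppbp and Gp9 were at 0 in all 9 libraries. Any part of these lists in the integrin values was not tested.

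**Figure D3:**
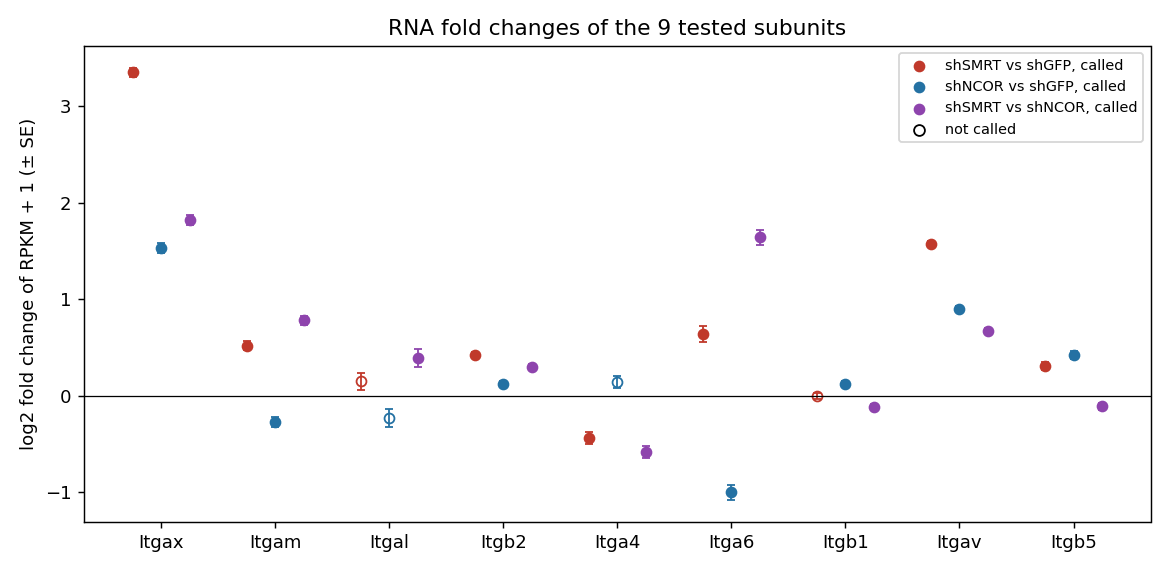
RNA log2 fold change of RPKM + 1 with its SE (vertical axis) for the 9 tested subunits in shSMRT against shGFP, shNCOR against shGFP and shSMRT against shNCOR. Filled points were called (adjusted p under 0.05) and open points were not. Itgax reached 3.35 in shSMRT and 1.53 in shNCOR, and Itga6 and Itgam lay on opposite sides of 0 in the knockdowns.

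Ordered by RPKM, which is set per exon length, Itgb2 led in shSMRT at 119 and was followed by Itga4 at 110, whereas Itga4 led in shNCOR at 165 and in shGFP at 149, ahead of Itgb2 at 96.5 and 88.8. Itgb1 came next in every group. In shSMRT the libraries of Itgav and Itgam overlapped at the next ranks, as did those of Itgb5 and Itgax. In shNCOR no neighbours in the order overlapped, and in shGFP only Itgax and Itga6 did. Itgax was seventh in shSMRT and in shNCOR and eighth in shGFP.

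The genes most like Itgax across the 9 RNA libraries, by Pearson correlation of log2(RPKM + 1), were Fam20c, a secretory pathway kinase (r = 0.9993), Mmp12, the macrophage elastase (r = 0.9963), and Atp6v1b2, a vacuolar ATPase subunit (r = 0.996). The 9 points share 3 groups, so these values describe the order of the groups more than the libraries. Fam20c was at 140.5, 144.2 and 137.8 RPKM in shSMRT, 68.1, 68.0 and 67.0 RPKM in shNCOR and 36.4, 38.8 and 36.5 RPKM in shGFP. Mmp12 was at 10.2, 9.91 and 10.6 RPKM in shSMRT, 2.55, 2.74 and 2.28 RPKM in shNCOR and 0.051, 0.057 and 0.028 RPKM in shGFP.

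Of the 16 other integrin subunits listed, Itga5 and Itgb7 passed the filter and Itgb6 and Itgb8 were at 0 in all 9 libraries. Itga5, the alpha5 chain of the fibronectin receptor, was at 37.2 ± 0.602 RPKM in shSMRT, 25.7 ± 0.588 in shNCOR and 24.3 ± 1.01 in shGFP (SD, n = 3), with a log2 fold change of 0.60 ± 0.04 in shSMRT (limma adjusted p = 1.83e-07). Itgb7, the other beta partner of alpha4, was at 5.45 ± 0.28 RPKM in shSMRT, 2.71 ± 0.0558 in shNCOR and 2.90 ± 0.353 in shGFP, with 0.73 ± 0.07 in shSMRT (adjusted p = 7.98e-06). Neither was called in shNCOR against shGFP. Itgad, the beta2 partner encoded 23.3 kb beyond Itgax, reached at most 0.026 RPKM, and Itga2b, the platelet partner of beta3, at most 0.102 RPKM.

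Of 21 integrin ligand genes 9 were tested. In shSMRT against shGFP 6 were higher and 2 lower (median log2 fold change 0.13), beside 24.4% and 31.4% of all tested genes (median -0.02). In shNCOR against shGFP none was higher and 5 were lower (median -0.09), beside 17.6% and 20.0% of all tested genes (median 0.00). Tnc, the matrix protein tenascin C, was at 7.12, 7.66 and 6.92 RPKM in shSMRT, 0.148, 0.072 and 0.099 RPKM in shNCOR and 0.074, 0.018 and 0.023 RPKM in shGFP, so only shSMRT rose above 1 RPKM. Lamc1, a laminin chain, was at 37.9 ± 2.07 RPKM in shSMRT, 13.6 ± 1.41 in shNCOR and 13.9 ± 0.423 in shGFP. Icam1, a ligand of LFA-1 and Mac-1, rose to 59.1 ± 1.32 RPKM in shSMRT and fell to 33.5 ± 0.886 in shNCOR, against 41.6 ± 0.696 in shGFP (limma adjusted p = 2.27e-07 in shSMRT and 1.73e-05 in shNCOR). Mfge8, a secreted ligand of alphav integrins, fell to 23.1 ± 1.5 RPKM in shSMRT and 29.5 ± 0.0909 in shNCOR, against 40.0 ± 0.697 in shGFP.

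Of 40 genes of integrin activation and adhesion signalling 36 were tested. There 20 were higher and 9 lower in shSMRT against shGFP (median 0.12), beside 24.4% and 31.4% of all tested genes (median -0.02). Against shGFP 10 were higher and 11 lower in shNCOR (median -0.03), beside 17.6% and 20.0% of all tested genes (median 0.00). Src, the tyrosine kinase, was at 5.86, 6.01 and 5.70 RPKM in shSMRT, 1.33, 1.16 and 0.980 RPKM in shNCOR and 0.366, 0.511 and 0.370 RPKM in shGFP, an order like that of Itgax and Itgav. Actn1, an actin crosslinker of adhesion sites, was at 63.3 ± 0.532 RPKM in shSMRT, 51.5 ± 0.465 in shNCOR and 35.9 ± 1.32 in shGFP. Fgr, a Src-family kinase, fell in shNCOR and was at 13.1 ± 0.643 RPKM in shSMRT, 6.74 ± 0.143 in shNCOR and 10.9 ± 0.551 in shGFP. Rassf5, the RAP1 effector RAPL, was at 15.0 ± 0.418 RPKM in shSMRT, 10.6 ± 0.393 in shNCOR and 17.7 ± 0.736 in shGFP. In shSMRT the largest falls were in Parvg, Zyx and Rapgef1, with log2 fold changes of -0.48, -0.37 and -0.31.

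Chromatin accessibility was read from 71 peaks, of which 17 carry the name of Itga4, 10 of Itgav, 9 of Itgb5, 8 of Itgb2, 7 of Itgam, 5 of Itgax, 4 each of Itgal, Itga6 and Itgb3 and 3 of Itgb1. They were 163 to 1276 bp wide (median 327), 61 lay within 50 kb of the start site, and 34 had a peak in all 9 libraries. All 71 passed the filter of a value of at least 10 reads per 10 M in at least 3 libraries. In shSMRT against shGFP, 11 were higher and 8 lower (limma on log2(value + 5), adjusted p under 0.05 over 51469 peaks), where 6.81% of all peaks were higher and 10.9% lower. In shNCOR against shGFP, 6 were higher and 3 lower, where 4.58% of all peaks were higher and 4.0% lower. These 9 calls came to 5 without shGFP replicate 1. In shSMRT against shNCOR, 5 were higher and 9 lower, where 6.93% of all peaks were higher and 17.5% lower. The median log2 fold change over the 71 peaks was 0.07, 0.11 and -0.01 in these comparisons, beside -0.09, 0.05 and -0.12 over all peaks.

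These counts depend on scaling, since the groups differed in their share of reads in peaks. With totals in peaks set equal, the member peaks gave 14 higher and 7 lower in shSMRT against shGFP, 4 and 4 in shNCOR against shGFP, and 7 and 4 in shSMRT against shNCOR. Over all called peaks the share that was higher was then 61.9, 36.2 and 66.5% in these comparisons, against 38.5, 53.4 and 28.4% as deposited, and 56.7, 44.9 and 59.7% with quantile normalization. The median over all peaks in shSMRT against shNCOR became 0.04.

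**Figure D4:**
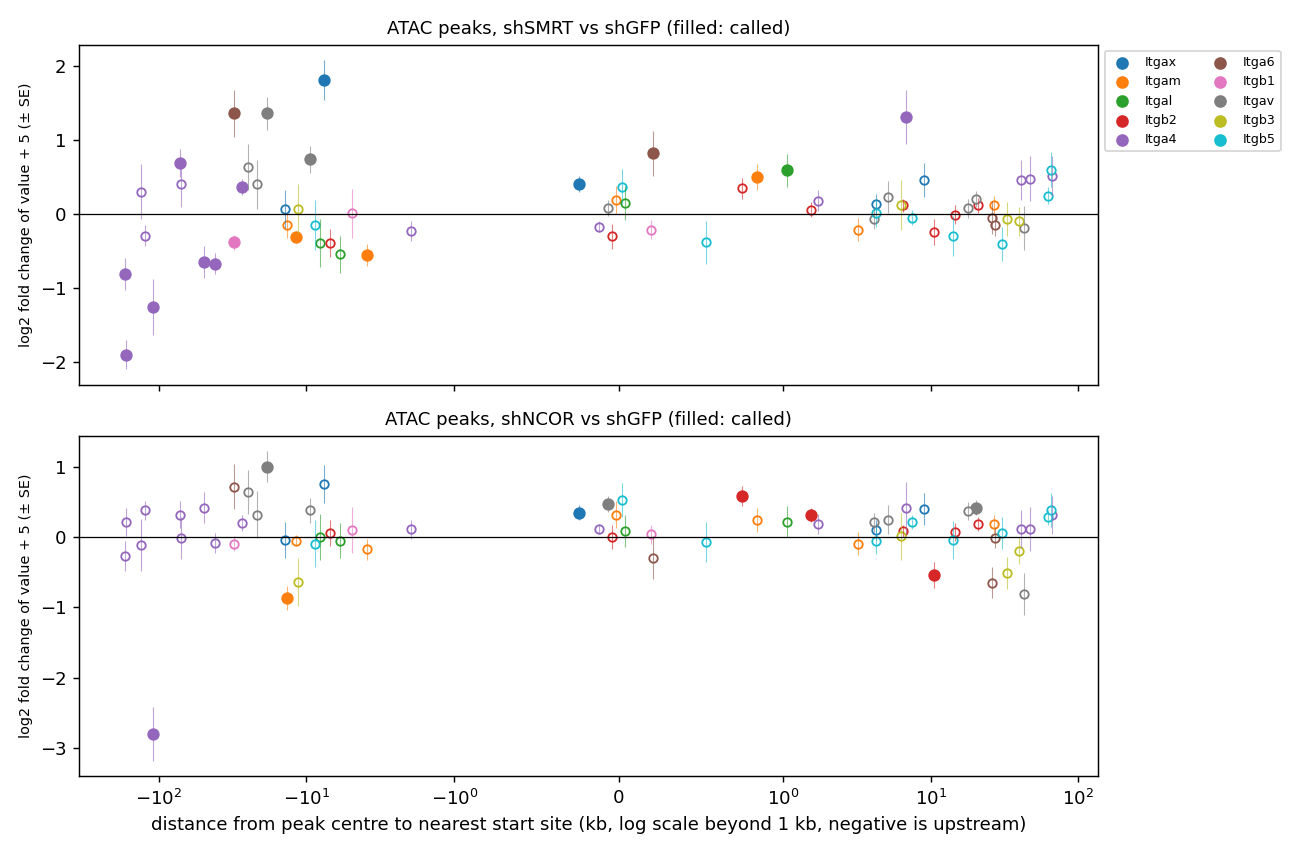
Log2 fold change of the ATAC value + 5 with its SE (vertical axis) of the 71 peaks against the distance of the peak centre from the start site (horizontal axis, kb, log scale beyond 1 kb), in shSMRT against shGFP (top) and shNCOR against shGFP (bottom). Colours are subunits, filled points were called and open points were not. The Itgax peak 7569 bp upstream was highest in shSMRT, and of the called peaks upstream of Itga4 in that comparison 5 were lower and 2 higher. Over all peaks 10.9% were lower and 6.81% higher there.

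Accessibility rose at Itgax in shSMRT at a distal and a promoter peak. The distal peak (chr7:128121701-128122261, mm10, 561 bp), 7569 bp before the start site and between Itgam and Itgax, lies in an L1 element (Lx8) by the deposited annotation. Its value was 76.0, 79.4 and 59.4 reads per 10 M in shSMRT, 40.9, 24.8 and 31.7 in shNCOR and 20.1, 11.2 and 20.3 in shGFP, from 12 to 81 reads a library. No shNCOR library overlapped with shGFP or with shSMRT. It rose by 1.81 ± 0.27 on the log2 scale in shSMRT (limma adjusted p = 2.15e-06) and by 1.04 ± 0.27 in shSMRT against shNCOR (adjusted p = 0.00329), and the value of 0.76 ± 0.27 in shNCOR was not called (adjusted p = 0.0664). The groups thus stood in the order of Itgax RNA.

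The Itgax promoter peak (chr7:128128961-128129656, centre 242 bp before the start), which covers the printed AP-1 motif, was at 201.9, 254.1 and 215.1 in shSMRT, 186.1, 219.5 and 238.5 in shNCOR and 145.4, 186.6 and 169.7 in shGFP. The shSMRT libraries lay above all shGFP libraries, and shNCOR overlapped with shGFP at its lowest library. The log2 fold change was 0.41 ± 0.11 in shSMRT (limma adjusted p = 0.00888) and 0.35 ± 0.11 in shNCOR (adjusted p = 0.0429). The call in shSMRT ended without shGFP replicate 1 (adjusted p = 0.0996) or shSMRT replicate 2 (adjusted p = 0.0847). The call in shNCOR ended without shGFP replicate 1 or 3 (adjusted p = 0.241 and 0.0966), without shNCOR replicate 2 or 3 (adjusted p = 0.104 and 0.194), and with totals in peaks set equal (adjusted p = 0.121).

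At Itgam the promoter peak, 16 bp before the start, was not called in either knockdown (0.19 ± 0.19 in shSMRT and 0.32 ± 0.19 in shNCOR). An intergenic peak 13638 bp upstream (chr7:128048853-128049151, in an L2 element) was at 85.4, 97.6 and 96.2 in shSMRT, 47.5, 62.7 and 54.6 in shNCOR and 110.7, 115.3 and 86.7 in shGFP. It lay lower in every shNCOR library than in the other groups (log2 fold change -0.86 ± 0.17, limma adjusted p = 0.000317), and shSMRT overlapped with shGFP (-0.15 ± 0.17, adjusted p = 0.589). The difference of shSMRT from shNCOR was 0.72 ± 0.17 (adjusted p = 0.00128). In shSMRT against shGFP 1 of the 7 Itgam peaks was higher and 2 were lower, beside 6.81% and 10.9% of all peaks. Those 11726 and 3892 bp upstream were at -0.31 and -0.55 (adjusted p = 0.00636 and 0.00659). One in intron 1, 843 bp beyond the start, was at 0.50 (adjusted p = 0.0321). Their calls ended in 1, 1 and 4 of 19 other settings, and they were chosen after their values were seen.

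Itgb2 had a promoter peak 41 bp before the start that was not called in either knockdown (-0.30 ± 0.17 in shSMRT and 0.00 ± 0.17 in shNCOR). A peak in intron 1, 749 bp beyond the start (chr10:77530965-77531273), was at 118.3, 112.3 and 104.7 in shSMRT, 137.3, 133.7 and 126.9 in shNCOR and 92.8, 85.3 and 81.2 in shGFP. It rose in shNCOR by 0.59 ± 0.14 (limma adjusted p = 0.00321). The value in shSMRT was 0.35 ± 0.14 (adjusted p = 0.0664), and it was called with totals in peaks set equal (0.45, adjusted p = 0.0191). Another intron 1 peak, 10507 bp beyond the start, was lower in shNCOR by -0.54 ± 0.18 (adjusted p = 0.0412), a call that ended on leaving out any shGFP library (adjusted p = 0.136, 0.0794 and 0.128 without replicates 1, 2 and 3) or shNCOR replicate 1 or 2 (adjusted p = 0.0796 and 0.201). The Itgal promoter peak, 40 bp beyond its start, was not called, at 0.15 ± 0.23 in shSMRT and 0.09 ± 0.23 in shNCOR.

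Itga4 has the most peaks, 8 of them farther than 50 kb from its start. All but 1 of these 8 lie upstream, where a gap of 326.6 kb separates Itga4 from the next protein-coding gene, Ube2e3. The peaks 168015 and 165356 bp upstream lie about midway between these genes. In shSMRT against shGFP 3 of the 17 Itga4 peaks were higher and 5 lower, where 6.81% of all peaks were higher and 10.9% lower. All 5 lower peaks lay upstream, as did 2 of the 3 higher ones and most Itga4 peaks, called or not. The peak 165356 bp upstream (chr2:79089848-79090292) was at 39.4, 22.7 and 17.0 in shSMRT, 133.3, 115.5 and 126.9 in shNCOR and 121.9, 89.1 and 112.5 in shGFP, so that shSMRT stood far below the rest. Its log2 fold change was -1.90 ± 0.20 in shSMRT (limma adjusted p = 3.78e-10), 0.22 ± 0.20 in shNCOR (adjusted p = 0.556) and -2.11 ± 0.20 in shSMRT against shNCOR (adjusted p = 1.36e-11). Whether so distant a peak acts on Itga4 was not tested, since the name is that of the nearest start site.

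The Itga4 peak 109500 bp upstream (chr2:79145621-79146231) was at 14.1, 23.8 and 17.0 in shSMRT, 10.6, 0 and 1.27 in shNCOR and 48.1, 45.9 and 56.2 in shGFP. Both knockdowns lay below every shGFP library and shNCOR lay lowest, with 0 to 8 reads a library. On the log2 scale it was lower by -1.26 ± 0.38 in shSMRT (limma adjusted p = 0.0153) and by -2.80 ± 0.38 in shNCOR (adjusted p = 4.87e-07). The call in shSMRT ended without shGFP replicate 1 or 3 (adjusted p = 0.0623 and 0.0814) or shSMRT replicate 1 (adjusted p = 0.0767). It was the only 1 of the 17 Itga4 peaks called in shNCOR against shGFP, where 4.58% of all peaks were higher and 4.0% lower.

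A further 3 upstream Itga4 peaks were lower in shSMRT against shGFP. The one 41395 bp upstream fell by 0.67 on the log2 scale (limma adjusted p = 0.000479), with 83.6, 99.8 and 69.3 in shSMRT, 130.7, 118.8 and 137.0 in shNCOR and 143.1, 134.1 and 130.9 in shGFP. The one 168015 bp upstream fell by 0.81 (adjusted p = 0.00537, but 0.0745 without shSMRT replicate 3), and the one 49074 bp upstream by 0.65 (adjusted p = 0.0284). The last call ended without shGFP replicate 2 or 3 (adjusted p = 0.0721 and 0.147) or shSMRT replicate 2 or 3 (adjusted p = 0.0696 and 0.125). The upstream peak 71338 bp from the start was higher in shSMRT by 0.69 ± 0.19 (adjusted p = 0.00901, but 0.0747 without shSMRT replicate 2). The one 27301 bp upstream was higher by 0.37 ± 0.11 (adjusted p = 0.0139), a call that ended without shGFP replicate 3 (adjusted p = 0.0822) or shSMRT replicate 1 (adjusted p = 0.0647). Both were chosen after their values were seen. A peak in intron 2, 6796 bp beyond the start, rose in shSMRT by 1.31 ± 0.37 (adjusted p = 0.00937), with 30.0, 35.2 and 26.9 in shSMRT, 27.7, 8.25 and 11.4 in shNCOR and 7.83, 9.37 and 11.1 in shGFP. The Itga4 promoter peak was the strongest named, at 734.2, 796.3 and 848.9 in shSMRT, 930.5, 1011.7 and 960.3 in shNCOR and 897.9, 878.4 and 888.9 in shGFP. It was not called against shGFP (-0.17 ± 0.07 in shSMRT, adjusted p = 0.109, and 0.12 ± 0.07 in shNCOR). Its difference of shSMRT from shNCOR, -0.29 ± 0.07 (adjusted p = 0.00294), was 0.04 with quantile normalization (adjusted p = 0.593).

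At Itga6 the peak over exon 1, 212 bp beyond the start (chr2:71786867-71787435), was at 42.2, 35.2 and 56.6 in shSMRT, 22.4, 14.8 and 16.5 in shNCOR and 27.9, 21.6 and 19.4 in shGFP. The shSMRT libraries were highest, and shNCOR overlapped with shGFP. Its log2 fold change was 1.11 ± 0.30 in shSMRT against shNCOR (limma adjusted p = 0.00484), 0.82 ± 0.30 in shSMRT against shGFP (adjusted p = 0.0479) and -0.29 ± 0.30 in shNCOR against shGFP (adjusted p = 0.621). The second call ended without any one shGFP library (adjusted p = 0.0666, 0.112 and 0.156 without replicates 1, 2 and 3) and without shSMRT replicate 1 or 3 (adjusted p = 0.108 and 0.208). The peak 30832 bp upstream of Itga6 rose in shSMRT by 1.36 ± 0.32 (adjusted p = 0.00164), with 52.6, 52.2 and 24.1 in shSMRT, 25.1, 26.4 and 21.6 in shNCOR and 12.3, 13.1 and 12.9 in shGFP. An Itga6 peak in intron 1, 26033 bp beyond the start, was chosen after its values were seen. It was lower in every shNCOR library than in shGFP (-0.65 ± 0.22), which was not called (adjusted p = 0.0568). In shSMRT against shNCOR it was higher by 0.61 ± 0.22 (adjusted p = 0.0405), a call that ended in 10 of 19 other settings. The Itgb1 peak 195 bp beyond its start was not called in either knockdown (-0.21 ± 0.13 in shSMRT and 0.04 ± 0.13 in shNCOR).

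At Itgav a distal and the promoter peak differed in which knockdown raised them. The peak 18443 bp upstream (chr2:83705814-83706094), in an LTR element (RMER6B), was at 81.7, 99.8 and 82.1 in shSMRT, 42.2, 87.5 and 79.9 in shNCOR and 32.4, 26.2 and 35.0 in shGFP. It rose in both, by 1.36 ± 0.22 in shSMRT (limma adjusted p = 6.82e-06) and 1.00 ± 0.22 in shNCOR (adjusted p = 0.0014). The promoter peak (chr2:83724004-83724666, centre 62 bp before the start), which covers the printed PU.1 motif, was at 181.2, 217.8 and 223.6 in shSMRT, 258.7, 292.1 and 266.4 in shNCOR and 216.9, 181.9 and 188.1 in shGFP. It rose in shNCOR by 0.47 ± 0.11 (adjusted p = 0.00213), and the value in shSMRT was 0.08 ± 0.11 (adjusted p = 0.648). The difference of shSMRT from shNCOR, -0.39 ± 0.11 (adjusted p = 0.00526), was not called with totals in peaks set equal (-0.22, adjusted p = 0.125), with quantile normalization (-0.14, adjusted p = 0.371) or without shSMRT replicate 1 (adjusted p = 0.0599). Itgav RNA was thus highest in shSMRT, where the promoter peak was not called but the peaks 18443 and 9446 bp upstream were higher. The peak 9446 bp upstream, chosen after its values were seen, rose there by 0.74 ± 0.18 (adjusted p = 0.0027), a call kept in all 19 other settings. Its value in shNCOR was 0.38 ± 0.18 and not called (adjusted p = 0.2). A peak in intron 2, 20192 bp beyond the start, was higher in shNCOR by 0.42 ± 0.11 (adjusted p = 0.0123), a call that ended without shGFP replicate 1 (adjusted p = 0.0797) or shNCOR replicate 2 or 3 (adjusted p = 0.052 and 0.0694).

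None of the 9 Itgb5 peaks and none of the 4 Itgb3 peaks was called in any of the 3 contrasts. Over all peaks 6.81% were higher and 10.9% lower in shSMRT against shGFP, and 4.58% and 4.0% in shNCOR against shGFP. In shSMRT against shNCOR these shares were 6.93% and 17.5%. With so few peaks, the lack of calls is not taken as a trait of these genes. The Itgb5 peak 24 bp from its start had a log2 fold change of 0.37 ± 0.24 in shSMRT and 0.53 ± 0.24 in shNCOR (limma adjusted p = 0.298 and 0.17). Its values were 64.8, 49.9 and 49.5 in shSMRT, 80.5, 64.4 and 44.4 in shNCOR and 23.5, 45.0 and 62.7 in shGFP, a wide spread within shGFP.

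**Figure D5:**
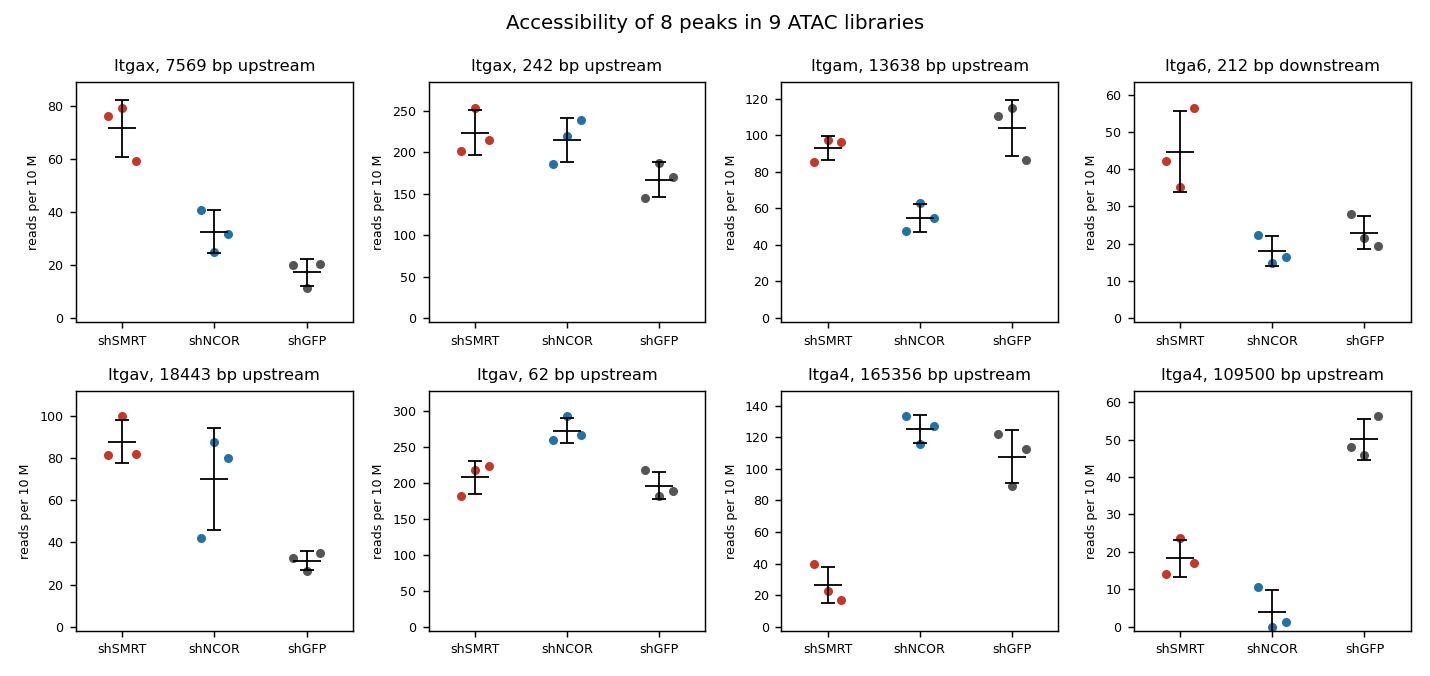
Accessibility in reads per 10 M (vertical axis, from 0) of 8 ATAC peaks, named by subunit and distance from the start site, in shSMRT, shNCOR and shGFP. Points are libraries and bars the mean ± SD of 3. The Itgax peak 7569 bp upstream averaged 71.6 in shSMRT, 32.5 in shNCOR and 17.2 in shGFP, and the Itga4 peak 165356 bp upstream 26.4 in shSMRT, 125 in shNCOR and 108 in shGFP.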

How the data were processed

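Of the 72 samples of the series, 18 were used, 9 RNA-seq and 9 ATAC-seq libraries grouped by the hairpin in their titles, and the 54 others are not analysed here. The labels' text on ATAC speaks of wild-type cells, but each title names a hairpin, which was taken as the group.

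The deposited RNA values are RPKM and per the file headers come from HOMER counts on both strands over the exons of RefSeq transcripts in mm10, so reads of overlapping or antisense genes cannot be told apart. The deposited ATAC values are, per the file headers, read counts per merged peak scaled to 10 M reads per library. Tools and builds in the submitters' processing notes are DESeq2, HISAT2, Bowtie2, MACS2, HOMER, mm9 and mm10, without roles. The caller of the ATAC peaks and any shift of reads for the transposase are not given in the sources used here. A single ATAC peak without a number in 1 cell was left out. Each low value came to a whole number of reads within 0.1 read, which gave the depth of each library. Replicate libraries differed by more than sampling noise.

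Fits used limma 3.58.1 in R 4.3.3 with a mean-variance trend over all 9 libraries of an assay, with pseudocounts of 1 RPKM and 5, filters of 1 RPKM and a value of 10 in 3 libraries, and Benjamini-Hochberg adjustment over all features, and were tested on simulated data. Shares were compared with exact permutation tests (scipy 1.17.1), and figures drawn with matplotlib 3.10.9. The subunits, gene lists and alternatives (pseudocount, filter, scaling, replicate block, 6 libraries, weights, leaving out libraries) were chosen with earlier results of these data known. Named peaks are, for each subunit, the one nearest its start within 1 kb and, over all, the called ones with the 5 highest and 5 lowest log2 fold changes in each knockdown. Any other peak named was chosen after its values were seen. Of the lists, up to 3 called genes in each direction were candidates for naming. Some genes that this rule names are not reported here. Peak and protein sequences were not used here.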

Additional observations from a re-analysis of the deposited data

Results flagged for a closer look

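Itgam and Itga6 were called in opposite directions in the knockdowns and were flagged for that. The difference between the knockdowns comes from the same fit and follows from those calls, so it is not separate evidence. Itgam RNA was higher in shSMRT than in shNCOR by 0.78 ± 0.05 on the log2 scale, with 37.9 ± 1.66 RPKM in shSMRT, 21.6 ± 0.863 in shNCOR and 26.2 ± 1.4 in shGFP (limma, adjusted p = 1.79e-07). Itga6 RNA was higher in shSMRT than in shNCOR by 1.64 ± 0.08, with 2.45 ± 0.155 RPKM in shSMRT, 0.108 ± 0.0357 in shNCOR and 1.21 ± 0.155 in shGFP (adjusted p = 5.18e-08).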

How the results depend on the processing

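Of 169 RNA values in each comparison, 168 in shSMRT against shGFP, 163 in shNCOR against shGFP and 155 in shSMRT against shNCOR kept their direction and their side of the threshold, and none reversed. For ATAC the same held for 1288, 1309 and 1285 of 1341, and 2 values reversed, both in shSMRT against shNCOR with quantile normalization, 0.04 for the Itga4 promoter peak and 0.03 for the Itgam peak 11726 bp upstream. Leaving out 1 library gave 7 called subunits in shSMRT against shGFP, 7 to 8 in shNCOR against shGFP and 8 to 9 in shSMRT against shNCOR. It gave 13 to 19, 5 to 9 and 10 to 15 called peaks, the 5 without shGFP replicate 1. The Itgax share differed by 31.1 to 31.7 points in shSMRT and 14.6 to 15.4 in shNCOR, and by 32.7 and 16.1 points with Itgam and Itgax only in the sum. With the replicate block 7, 8 and 9 subunits and 18, 9 and 14 peaks were called. Deviations of same-numbered libraries had correlations of -0.06 to 0.1 in RNA and -0.04 to 0.02 in ATAC. Over all features the block gave more calls in RNA and fewer in ATAC, in each comparison. Whether same-numbered libraries share a batch is not given in the labels, and these correlations cannot settle it. The block changed the call of Itga4 RNA in shNCOR against shGFP (called, 0.14, limma adjusted p = 0.0145) and of the Itga6 peak 212 bp beyond the start in shSMRT against shGFP (not called, 0.82, adjusted p = 0.0533), and of 2 peaks in shSMRT against shNCOR, the Itgb2 peak 1548 bp beyond the start (not called, adjusted p = 0.0625) and the Itga4 peak 168015 bp upstream (called, adjusted p = 0.043). A limma voom fit on recovered reads was chosen after seeing the data, and the edgeR test was not run. Depth limits Itgb3 and the weakest peaks.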
